A study of Homo sapiens with 6 samples.

Results

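Heme is built from glycine and succinyl-CoA by a chain of enzymes that starts and ends in mitochondria and passes through the cytosol in between. The enzymes described here are those of this chain, taken in pathway order, together with heme oxygenase 1, which opens the heme ring again. Of the 9 genes ALAS1, ALAS2, ALAD, UROS, UROD, CPOX, PPOX, FECH and HMOX1, chosen by symbol, 7 had a row in each of the 3 deposited tables, of 17066 symbols in at least 1 table. CPOX and HMOX1 were not analysed here, nor was the CEBPA gene itself, so that induction was not checked in these values. The first step, the joining of glycine and succinyl-CoA to 5-aminolevulinic acid, sets the pace of the pathway. It is carried out by ALAS2 in red cell precursors and by ALAS1 in most other cells, where heme itself holds ALAS1 in check. Red cell precursors make heme for hemoglobin and switch the pathway on under GATA1, the leading erythroid transcription factor. C/EBPα is a transcription factor that drives granulocyte formation.

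The RNA-seq was from K562, a human leukemia line long kept in culture, which has erythroid features and expresses neither C/EBPα isoform. All cells carried a PiggyBac transposon with a Tet-inducible cassette and received 200 ng/ml doxycycline for 48 h. The cassette was empty in CTR cells, coded for wild-type C/EBPα in CEBPA cells and for the short dominant negative isoform C/EBPα-p30 in P30 cells, with 2 replicates of each cell line. The study's western blot after 48 h of doxycycline showed both the full-length protein and p30 in CEBPA cells, and neither in CTR cells. CEBPA vs P30 is therefore not a comparison of the full-length form alone with p30. The comparisons ask how gene expression differs between these cell lines. The study reports that doxycycline stopped the growth of CEBPA cells and brought on granulocytic differentiation. It reports no effect on proliferation in CTR or P30 cells. A direct effect of C/EBPα in CEBPA cells cannot be told apart here from changes that go with arrest or differentiation. Whether each cell line was 1 clone is not given in the sources used here, and an effect of the isoform cannot be told apart from a difference between separately made cell lines.

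The values are FPKM, which count a gene's fragments relative to its transcript length and to all mapped fragments, and the replicates were pooled into 1 FPKM for every gene of a group. There is therefore no replicate error, and everything that follows describes these pooled values without a test. The study states how many read pairs were sequenced per sample, but pooled FPKM do not give the counts behind a single value. Changes are differences of log2(FPKM + 1), on which low genes seem to change less than they do, and folds are plain ratios of FPKM. A gene was compared where either group exceeded 1 FPKM, which left 13673 genes for CEBPA vs CTR, 12395 for P30 vs CTR and 13569 for CEBPA vs P30. The median change over all these genes was -0.01, 0.02 and -0.04, respectively.

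The letters upstream of both genes of the first step are shown because these genes differed from CTR in opposite directions. Positions are in GRCh37, to which the authors aligned. ALAS2 (ENSG00000158578) spans 55035488 to 55057410 of chromosome X on the minus strand, and ALAS1 (ENSG00000023330) 52232102 to 52248343 of chromosome 3 on the plus strand. The 250 bases before each RefSeq start (table build GRCh38.p14) matched GRCh37 exactly at 1 place, chrX:55057411-55057660 on the minus strand and chr3:52231849-52232098 on the plus strand. Capitals mark a GATA motif (AGATAA, where the opening A may be T and the closing A may be G, on either strand) or the NF-E2 or AP-1 motif (TGAGTCA on either strand).
ALAS2: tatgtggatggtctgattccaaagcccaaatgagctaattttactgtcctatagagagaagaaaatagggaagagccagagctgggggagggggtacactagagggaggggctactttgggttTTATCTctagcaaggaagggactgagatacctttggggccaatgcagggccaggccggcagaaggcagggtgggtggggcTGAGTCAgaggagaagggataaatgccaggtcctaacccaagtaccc
ALAS1: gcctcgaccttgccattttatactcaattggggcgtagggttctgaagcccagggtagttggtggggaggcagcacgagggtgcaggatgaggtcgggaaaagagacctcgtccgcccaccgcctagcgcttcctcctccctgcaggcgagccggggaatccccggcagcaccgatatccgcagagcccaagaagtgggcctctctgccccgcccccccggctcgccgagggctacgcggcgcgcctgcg
The GATA motif of ALAS2 starts 127 bases and its TGAGTCA 47 bases before the RefSeq start, and neither motif is in these letters of ALAS1.

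RefSeq windows, from 250 bases before to 50 after a start, were found for 6 of the 7 genes (all but UROS), 8 windows in all, since ALAD and PPOX have a pair of starts each. A GATA motif was in 3 of the 8 windows, those of ALAS2 and of the downstream starts of ALAD and PPOX, against 25.0% of all 35116 windows. The motif of ALAD lies 68 and that of PPOX 63 bases before the downstream start, and 30 bases around each are given with the motif in capitals, at chr9:116163451-116163480 on the minus strand and chr1:161136361-161136390 on the plus strand of GRCh37.
ALAD: ctggatgcggggAGATAGcgggcctggagg
PPOX: agggtgtggcccTTATCTgcacccagcaga
TGAGTCA was in the window of ALAS2 and in 4.95% of all windows. The NRF1 motif GCATGCGC, on either strand, was in the window of ALAS1, from the 22nd base after the start, and in 3.05% of all windows. NRF1 is a factor of genes for mitochondrial proteins. A C/EBP motif, TTGCNNAA on either strand, was in 0 of the 8 windows and in 10.5% of all windows. Such matches are letters in a short window and say nothing of binding in these cells, and the FPKM do not separate transcripts from different starts.

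ALAS2, the erythroid gene of the first enzyme, had 149 FPKM in CTR, 44.7 FPKM in P30 and 20.9 FPKM in CEBPA. It was thus highest in CTR and lowest in CEBPA, with P30 in between. CEBPA was 7.11-fold below CTR, a change of -2.77, and 18 of the 13673 genes (0.132%), ALAS2 included, had a change as low or lower. P30 was 3.33-fold below CTR, a change of -1.71, and 12 of 12395 genes (0.0968%), again with ALAS2, were as low or lower. CEBPA was also 2.14-fold below P30, a change of -1.06.

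ALAS1, the gene of the same enzyme in most tissues, showed the opposite order. It had 16.3 FPKM in CTR, 20.9 FPKM in P30 and 68.0 FPKM in CEBPA. CEBPA was 4.17-fold above CTR, a change of 2.00, with 571 of 13673 genes (4.18%) as high or higher. Against P30, CEBPA was 3.25-fold higher, a change of 1.65. P30 exceeded CTR only 1.28-fold, a change of 0.34, and 7.63% of all genes compared changed as much or more in that direction.

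Since FPKM are per length, the levels of both genes can be set side by side within a group. In CTR, ALAS1 made up 9.86% of the summed FPKM of ALAS1 and ALAS2. Its share was 31.9% in P30 and 76.4% in CEBPA. In CTR the level of ALAS2 was 9.14 times that of ALAS1, and in P30 2.14 times. In CEBPA the level of ALAS1 was 3.25 times that of ALAS2, so that the more abundant transcript of the first step was the other one. The sum was 165 FPKM in CTR, 65.7 FPKM in P30 and 88.9 FPKM in CEBPA. The summed level was thus lowest in P30 and not in CEBPA, at 39.7% of CTR against 53.8% for CEBPA, although ALAS2 alone was lower in CEBPA.

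**Figure D1:**
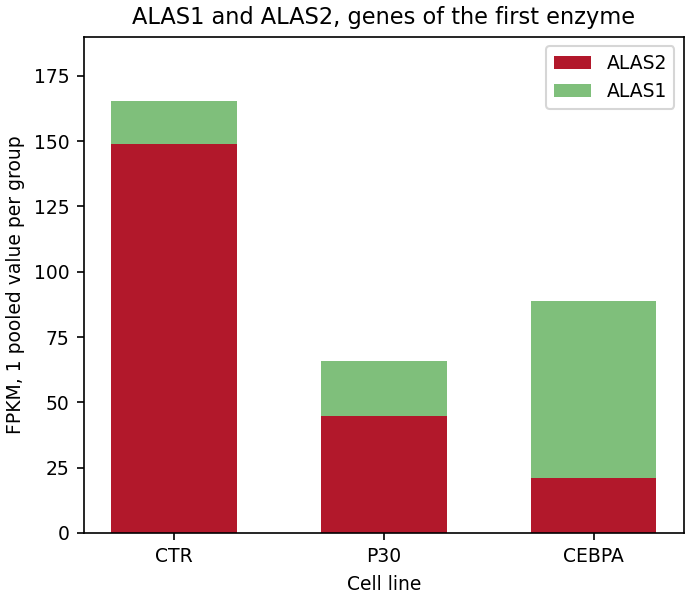
FPKM of ALAS2 (red) and ALAS1 (green), stacked, on a linear axis from 0 for each cell line, with 1 value per gene and group pooled over 2 replicates and no error bars. The stack is highest in CTR (165), lowest in P30 (65.7) and mostly ALAS1 in CEBPA (76.4% of 88.9).

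ALAS2 transcripts also carry an iron-responsive element, a hairpin to which iron regulatory proteins bind and which holds back translation when iron is short. It is shown as what sets the messenger of ALAS2 apart from that of ALAS1. A search for its loop (in capitals) with a bulged C and paired stem found it in 8 of 9 ALAS2 transcripts of Gencode and in none of the 6 of ALAS1, nor in those of the other 5 enzymes.
ALAS2: gttcgtcctCAGTGCagggcaac
It lies at chrX:55057377-55057399 on the minus strand of GRCh37, in the 5' untranslated region of all 7 of these transcripts with a coding region. The RNA levels given here do not measure translation. ACO1 and IREB2, the genes of the iron regulatory proteins, had changes of 0.02 and -0.0021 in CEBPA vs CTR, of -0.17 and 0.18 in P30 vs CTR and of 0.19 and -0.19 in CEBPA vs P30.

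The next step joins aminolevulinic acid into porphobilinogen in the cytosol and is carried out by ALAD (chromosome 9, 116148592 to 116163570, minus strand). ALAD had 31.5 FPKM in CTR, 25.7 FPKM in P30 and 18.0 FPKM in CEBPA. It followed the order of ALAS2, with the smallest differences of the 6 genes that were lower. Its change was -0.78 in CEBPA vs CTR, where 1639 of 13673 genes changed as much or more in that direction, -0.28 in P30 vs CTR and -0.49 in CEBPA vs P30. It was thus under 2-fold in each comparison.

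UROS and UROD make the ring and trim it, still in the cytosol. UROS (chromosome 10, 127473549 to 127511827, minus strand), which closes the tetrapyrrole ring, had 92.9 FPKM in CTR, 58.5 FPKM in P30 and 20.1 FPKM in CEBPA. CEBPA was 4.62-fold below CTR, a change of -2.15, and P30 1.59-fold below CTR, a change of -0.66. CEBPA was also 2.91-fold below P30, a change of -1.50.

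UROD (chromosome 1, 45476622 to 45481247, plus strand), which removes carboxyl groups from the ring, was the most abundant of the 7 transcripts in every group. It had 684 FPKM in CTR, 479 FPKM in P30 and 180 FPKM in CEBPA. CEBPA was 3.80-fold below CTR, a change of -1.92, and 2.66-fold below P30, a change of -1.41. P30 was 1.43-fold below CTR, a change of -0.51. Even at its lowest, in CEBPA, UROD stood above 97.3% of the 16586 genes with 1 row and a value in all 3 groups.

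PPOX (chromosome 1, 161135846 to 161147803, plus strand), the mitochondrial enzyme that oxidises protoporphyrinogen, had 205 FPKM in CTR, 143 FPKM in P30 and 34.3 FPKM in CEBPA. The gap between CTR and P30 was smaller than that between either of them and CEBPA. CEBPA was 5.98-fold below CTR, a change of -2.55, and 32 of 13673 genes (0.234%) were as low or lower. It was 4.17-fold below P30, a change of -2.03, which was the widest difference between CEBPA and P30 among the 7 genes. P30 was 1.43-fold below CTR, a change of -0.52.

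FECH (chromosome 18, 55211609 to 55253964, minus strand) inserts iron into protoporphyrin in the last step. It had 84.0 FPKM in CTR, 65.9 FPKM in P30 and 39.7 FPKM in CEBPA. Its change was -1.06 in CEBPA vs CTR, just past 2-fold, -0.34 in P30 vs CTR and -0.72 in CEBPA vs P30.

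**Figure D2:**
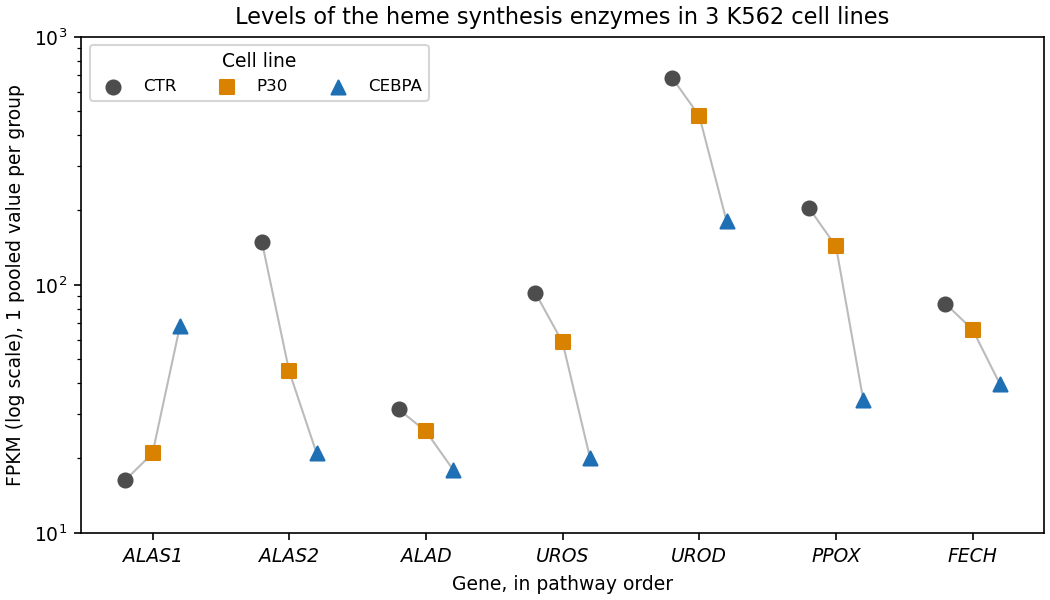
FPKM on a log axis of the 7 genes in pathway order, with 1 point per cell line (CTR circle, P30 square, CEBPA triangle; 2 replicates pooled, no error bars) and grey lines joining the points of a gene. In each gene but ALAS1 the point of CTR is the highest and that of CEBPA the lowest, and in ALAS1 the order is the opposite, from 16.3 FPKM in CTR to 68.0 FPKM in CEBPA.

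Across the pathway, 5 of the 7 genes were at least 2-fold lower in CEBPA than in CTR (ALAS2, UROS, UROD, PPOX and FECH), against 6.92% of all genes compared. ALAS1 was the 1 gene at least 2-fold higher, against 14.0% of all genes. The median change of the 7 was -1.92. In CEBPA vs P30, 4 genes were at least 2-fold lower (ALAS2, UROS, UROD and PPOX), where 5.79% of all genes were, and again ALAS1 alone was higher, where 13.1% were. The median was -1.06, which is the value of ALAS2, itself just past 2-fold. With a pseudocount of 5 in place of 1, FECH in CEBPA vs CTR (-0.99) and ALAS2 in CEBPA vs P30 (-0.94) were under 2-fold, which left 4 and 3 genes lower.

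In P30 vs CTR, ALAS2 was the 1 gene at least 2-fold lower, against 0.613% of all genes, and 0 of 7 were at least 2-fold higher, against 1.02%. The median change was -0.51. The other 5 lower genes had changes from -0.66 (UROS) to -0.28 (ALAD), of which that of UROS exceeded 1.5-fold. With 1.5-fold as the limit, 2 of 7 genes were lower, beside 2.63% of all genes. ALAS2 thus differed between CTR and P30 by more than any other member. These comparisons share groups, so that a gene's 3 values are not independent of each other.

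**Figure D3:**
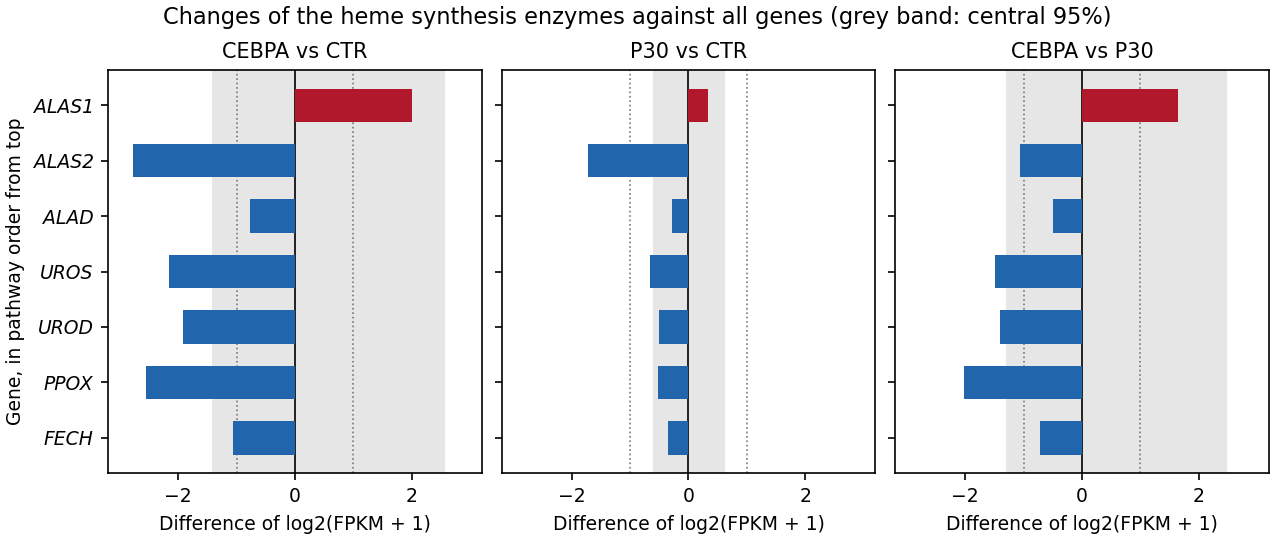
Difference of log2(FPKM + 1) of the 7 genes in each comparison (red higher, blue lower; no error bars, since each group has 1 pooled value), with 2-fold as dotted lines and the central 95% of all genes compared in grey. In P30 vs CTR the bar of ALAS2 (-1.71) reaches far out of the band and that of UROS (-0.66) just past it, and in CEBPA vs CTR those of ALAS2, UROS, UROD and PPOX leave it.

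The enzymes differed in how far they changed without an order along the pathway or between compartments. Among the cytosolic enzymes the changes in CEBPA vs CTR were -0.78 (ALAD), -2.15 (UROS) and -1.92 (UROD). Among the mitochondrial enzymes after the first step they were -2.55 (PPOX) and -1.06 (FECH). Over the 5 enzymes after the first step, the highest (UROD) exceeded the lowest (ALAD) 21.7-fold in CTR, 18.7-fold in P30 and 10.0-fold in CEBPA. Relative to UROD, the level of FECH was 12.3% in CTR and 22.1% in CEBPA, whereas that of PPOX was 29.9% and 19.0% and that of UROS 13.6% and 11.2%. ALAD and FECH were thus nearer to UROD in CEBPA than in CTR, and UROS and PPOX further from it.

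Some of the 7 genes overlap genes on the opposite strand. The libraries were made with a stranded kit, but whether strand was used in counting is not given in the sources used here, so that the levels of overlapping genes are uncertain to that extent. B4GALT3 overlaps PPOX over 6659 bp, and had 57.9 FPKM in CTR, 54.2 FPKM in P30 and 30.5 FPKM in CEBPA. It was thus below PPOX in all groups and changed by -0.90 in CEBPA vs CTR. HECTD3 overlaps UROD over 375 bp, with 32.6, 27.9 and 25.2 FPKM. APEX2 overlaps ALAS2 over 3 bp, with 16.0, 16.5 and 7.72 FPKM.

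Erythroid factors known to act on ALAS2 were looked at beside the enzymes. Of 8 factors, 6 were at least 2-fold lower in CEBPA than in CTR and 0 higher, against 6.92% and 14.0% of all genes, with a median of -1.44. These shares of all genes are also the background of the lists that follow. GATA1 had 185 FPKM in CTR, 193 FPKM in P30 and 53.1 FPKM in CEBPA, and KLF1, the erythroid Krüppel-like factor, 160, 115 and 42.3. NFE2, the erythroid subunit of the factor that binds TGAGTCA, had 167, 131 and 61.5 FPKM. In P30 vs CTR 0 of 8 reached 2-fold, against 0.613% of all genes lower and 1.02% higher, and the median was -0.12. There the factors differed by -0.52 (GFI1B) to 0.13 (ZFPM1), with GATA1 at 0.06, where ALAS2 differed by -1.71. In CEBPA vs P30, 7 of the 8 factors were at least 2-fold lower, against 5.79% of all genes, with a median of -1.18. LMO2, an adaptor in the GATA1 complex, was the exception at -0.15.

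Genes that could act on ALAS1 differed among themselves. Of 6 listed, 5 had a row, with a median of 0.33 in CEBPA vs CTR, and EGR1, an early growth response factor, was the 1 gene past 2-fold. It had 34.6 FPKM in CTR, 21.8 FPKM in P30 and 125 FPKM in CEBPA. NRF1 had 14.6, 13.9 and 13.7 FPKM. CLPX, which unfolds proteins for the mitochondrial protease that clears ALAS1 and also helps to activate the ALAS enzymes, had 23.1 FPKM in CTR, 25.5 FPKM in P30 and 55.0 FPKM in CEBPA, a change of 1.21 in CEBPA vs CTR.

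Among 13 of 14 listed genes of heme transport and other mitochondrial partners with a row, CLPX was the 1 gene at least 2-fold higher in CEBPA than in CTR. Lower by at least 2-fold were SLC25A39, a mitochondrial carrier of glutathione (163 FPKM in CTR, 161 FPKM in P30 and 69.7 FPKM in CEBPA), and FAM210B, a mitochondrial protein of erythroid cells (106, 69.9 and 41.4). The other 10 stayed under 2-fold, among them SLC25A38, the mitochondrial glycine carrier, at 30.1, 34.0 and 29.1 FPKM. The median of this list was -0.49. In P30 vs CTR 0 of 13 reached 2-fold, with a median of -0.01.

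Of 12 genes of iron-sulfur cluster assembly, which uses the same mitochondrial iron and gives FECH its cluster, 10 had a row. FDXR, the ferredoxin reductase, was lower in CEBPA than in CTR (57.5 FPKM in CTR, 44.9 FPKM in P30 and 13.5 FPKM in CEBPA; change -2.01). FDX1, a ferredoxin, and LYRM4, a partner of the cysteine desulfurase, were higher, by 1.49 and 1.36. The other 7 were under 2-fold and the median was 0.03.

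Of 11 genes of heme degradation, transport and sensing, 10 had a row. HMOX2, the constitutive heme oxygenase, had 33.0 FPKM in CTR, 31.4 FPKM in P30 and 31.3 FPKM in CEBPA. BLVRB, a biliverdin reductase abundant in red cells, had 641, 421 and 163 FPKM, a change of -1.97 in CEBPA vs CTR. FLVCR2, a transporter of the family of the heme exporter, had 24.0, 22.9 and 82.1 FPKM, and HEBP1, a heme-binding protein, was higher by 1.01. The other 7 were under 2-fold and the median was -0.09. BACH1, the heme-sensing repressor of heme oxygenase 1, changed by 0.69, and of 11 genes with a row among 14 of the NRF2 pathway 1 (SLC7A11, the cystine carrier, by 1.46) reached 2-fold, with a median of -0.33. In P30 vs CTR 0 genes of the iron-sulfur, heme degradation and NRF2 lists reached 2-fold, and their medians were 0.06, -0.06 and -0.08.

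Genes of iron-responsive control, 6 of 6 with a row, were all under 2-fold in all 3 comparisons. The transferrin receptor gene TFRC, whose product brings the iron for FECH into the cell, had 133 FPKM in CTR, 145 FPKM in P30 and 134 FPKM in CEBPA.

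Genes of proteins that carry heme or take part in its attachment went both ways. Of 21 listed, 16 had a row, and in CEBPA vs CTR 3 were at least 2-fold higher, 3 lower and 10 neither, with a median of -0.17. Of all genes compared, 14.0% were at least 2-fold higher and 6.92% lower. CYBB, the heme-binding subunit of the phagocyte oxidase, had 1.79 FPKM in CTR, 1.90 FPKM in P30 and 152 FPKM in CEBPA. Catalase (CAT) had 56.3, 52.4 and 138 FPKM, and EPX, eosinophil peroxidase, was barely over 1 FPKM in CEBPA. Lower were PTGS1, a cyclooxygenase (51.8, 36.4 and 5.35 FPKM), and the globin genes HBA1 (83.1, 110 and 25.0) and HBG1 (872, 410 and 389). HBG1 was the 1 gene of 15 that was at least 2-fold lower in P30 vs CTR, with a change of -1.09, against 0.613% of all genes. Both globins have a near-identical copy, so that their levels are uncertain. HBA2, the copy of HBA1, had 68.3 FPKM in CTR, 54.5 FPKM in P30 and 46.1 FPKM in CEBPA. It changed by -0.56 in CEBPA vs CTR, where HBA1 changed by -1.70. In P30 vs CTR HBA2 changed by -0.32 and HBA1 by 0.40.

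**Figure D4:**
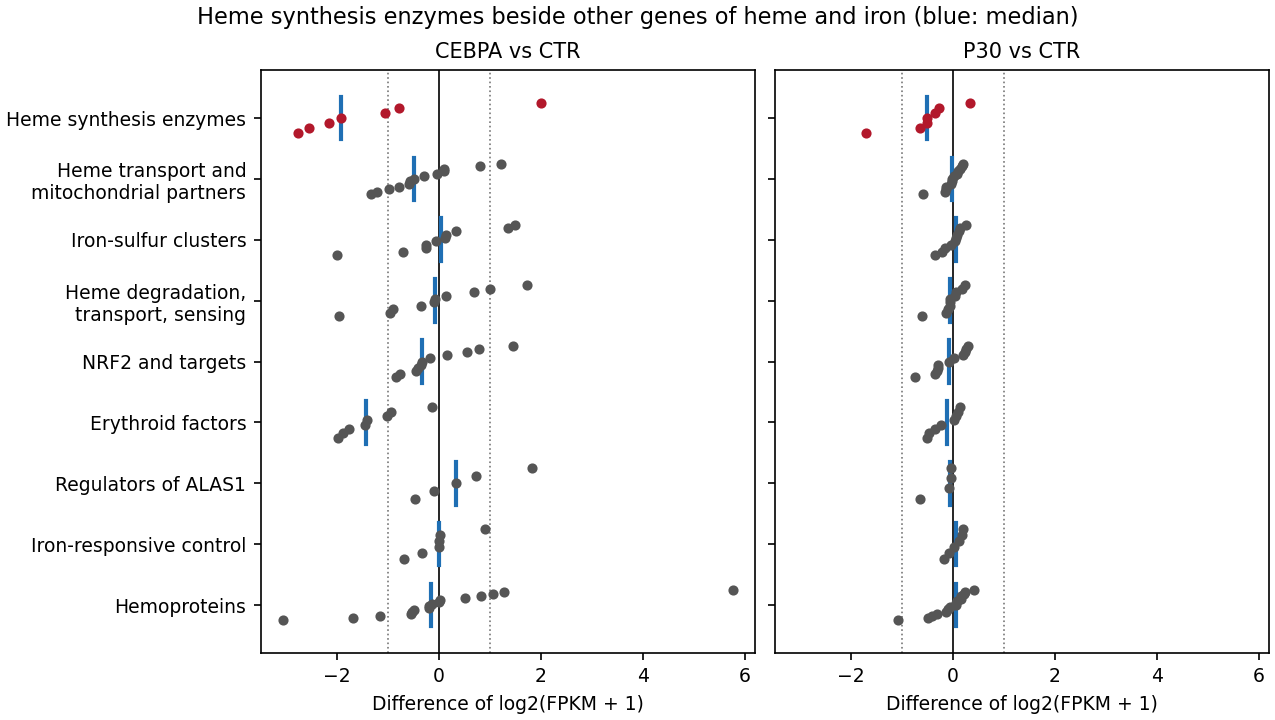
Difference of log2(FPKM + 1) of each gene over 1 FPKM in either group (points; red for the heme synthesis enzymes) and the median (blue bar) of 9 gene lists, with dotted lines at 2-fold and no error bars. In CEBPA vs CTR the medians of the enzymes (-1.92) and of the erythroid factors (-1.44) lie past 2-fold, and in P30 vs CTR the enzymes' median is -0.51 and those of the other 8 lists lie within 0.12 of 0. The erythroid markers, not drawn, had a median of -0.94 there.

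Markers of cell type were also compared, and they did not all move alike. The 7 of 9 listed erythroid markers with a row all exceeded 1 FPKM in each group, and their summed FPKM was 1332 in CTR, 753 in P30 and 628 in CEBPA. Most of each sum was HBG1 (872, 410 and 389 FPKM), whose level is uncertain. TFRC differed little, at 133, 145 and 134 FPKM. Of these markers 5 of 7 were at least 2-fold lower in CEBPA vs CTR and 3 of 7 (HBG1, AHSP and HEMGN) in P30 vs CTR, with medians of -1.32 and -0.94. Of all genes compared, 6.92% and 0.613% were at least 2-fold lower, respectively. The median of these markers in P30 vs CTR was thus further from 0 than that of the enzymes (-0.51). AHSP, the chaperone of alpha globin, had 28.5 FPKM in CTR, 13.0 FPKM in P30 and 8.13 FPKM in CEBPA. The summed FPKM of the granulocyte markers, 9 of 10 with a row, was 8.35 in CTR, 31.1 in P30 and 10315 in CEBPA. In P30 and CEBPA most of it was S100A8, S100A9 and S100A12. In P30 vs CTR these were the 3 of 5 compared markers at least 2-fold higher, against 1.02% of all genes. The other 2, CSF3R and LCN2, changed by -0.04 and -0.25. In CEBPA vs CTR 8 of 8 compared markers were at least 2-fold higher, against 14.0% of all genes. Macrophage markers (6 of 10 with a row) summed to 531, 622 and 480 FPKM, most of it CD68. Megakaryocyte markers (5 of 5) summed to 13.5, 14.2 and 64.9, with GP9 listed at 0 in CTR and PF4 in P30. Most of the sum in CEBPA was PPBP, at 0.071 FPKM in CTR, 0.022 FPKM in P30 and 51.1 FPKM in CEBPA. It was the 1 gene of 3 compared that reached 2-fold in CEBPA vs CTR, where 14.0% of all genes were at least 2-fold higher. ITGA2B, most of the sum in CTR and P30, had 12.6, 13.2 and 11.5 FPKM. Lymphocyte markers (3 of 5) summed to 13.2, 13.2 and 4.34. In such bulk samples fewer cells of a type and less RNA per cell cannot be told apart, and the part of these markers in the changes of the enzymes was not tested.

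The genes most like a member in both changes against CTR were sought among 10169 genes that exceeded 5 FPKM in some group, by the distance between the pairs of changes. With 3 groups such likeness is weak. Those of ALAS2 were COX6B2, MYO1A and FBLN2, at distances from 0.32 to 0.48 on the log2 scale. MYO1A, an unconventional myosin, had 50.7 FPKM in CTR, 18.1 FPKM in P30 and 7.57 FPKM in CEBPA. The nearest to FECH were POLR2L, CACFD1 and TTYH3, at distances from 0.0053 to 0.010, and those to ALAS1 were the antisense RNA MEF2C-AS1 and 2 transcripts known by clone names, within 0.05. So near a match was found for FECH and ALAS1 but not for ALAS2. The changes of ALAS2 were among the lowest of all genes, where few genes can be near, so that its larger distances say nothing particular of it. The neighbours of ALAS1 were low in CTR, where changes seem smaller on this scale. MEF2C-AS1, for example, had 2.71 FPKM in CTR, 3.67 FPKM in P30 and 14.0 FPKM in CEBPA.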

How the data were processed

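RNA-seq libraries of 6 K562 samples (2 each of CTR, CEBPA and P30) were aligned by the authors to hg19 with TopHat, assembled with Cufflinks on Gencode and quantified with Cuffdiff. The submitters' processing notes name TopHat2 2.0 and CASAVA 1.4. The deposited FPKM, in 3 tables, pool both replicates of a group into 1 value for each gene. How Cuffdiff scaled the libraries is not given in the sources used here. Tables that share a group gave identical FPKM for it, checked over all symbols that were not repeated. The study describes 2 sequencing runs, on different instruments and at different read lengths. An outside institute prepared the libraries of the second, and removal of ribosomal RNA is described only for the first. Differences between these runs are not visible once the replicates are pooled. The study states the read pairs sequenced per sample, but FPKM do not give the counts behind a value, so that no test, interval or SD was computed. The study's own Cuffdiff tests on its duplicates were not used here.

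Differences of log2(FPKM + 1) were computed where either group exceeded 1 FPKM, with Python 3.11.15, pandas 2.3.3 and numpy 2.4.6 (figures by matplotlib 3.10.9), and the script was tested on simulated data. The named genes are the 9 chosen ones, the members of the gene lists past 2-fold, with others as examples chosen after their values were seen, and for ALAS1, ALAS2 and FECH the 3 genes nearest in pattern. Overlapping genes, motifs and other values were chosen after values were seen. A marker gene was left out of the lists and is not reported here. The members and lists were chosen with earlier results of these data known. Gene positions and overlaps come from Gencode v44 on GRCh37, which is newer than the authors' annotation. Alternatives were other pseudocounts, centring, summed rows, other filters and 1.5-fold.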

Additional observations from a re-analysis of the deposited data

How the results depend on the processing

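No paired analysis was possible because pooling left no replicate values, and for that reason no replicate could be left out. Limits were set in place of replicate error: 0.20 for a log2 value, which is the spread (scaled median absolute deviation) of all genes in P30 vs CTR, and 1.5 times for a count. Alternatives gave 177 values for 36 results, of which 171 were within the limits, 6 were beyond them and 0 had the opposite sign. Many of these could not differ. The 7 genes have 1 row each and lie well above the filters, so that summed rows and other filters left their values unchanged. Centring shifted them only by the small median change of all genes. The count within the limits is therefore no measure of how firm the results are. With pseudocount 5 the genes at least 2-fold lower were 4 in place of 5 in CEBPA vs CTR (without FECH) and 3 in place of 4 in CEBPA vs P30 (without ALAS2), and the change in CEBPA vs CTR was 1.78 for ALAS1 and -2.57 for ALAS2. With 1.5-fold in place of 2-fold, 2 genes were lower in P30 vs CTR. With pseudocount 0.1, 0 of the 3 genes nearest to ALAS1 were the same, and 1 of 3 for ALAS2 and 1 of 3 for FECH, so that these neighbours depend on the scale. The cause of these moves was not tested. The share of ALAS1 in the sum uses FPKM without a pseudocount and had no alternative. The counts behind each FPKM are not known here, which limits low values most, and all 7 genes exceeded 16 FPKM in every group.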
